A study of Mus musculus with 2 samples.

Results

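The endoplasmic reticulum (ER) stress response was examined through 10 genes, Herpud1, Hspa5, Hsp90b1, Dnajb9, Dnajc3, Sdf2l1, Xbp1, Ddit3, Calr and Pdia4, chosen by symbol and read from all 25 of their probe sets that carry a single gene symbol, among 18194 genes on the array. The values come from injured kidneys of male C57BL/6 mice, 8 weeks old, harvested 24 h after 30 min of warm ischemia of both kidneys followed by reperfusion, a model of acute kidney injury (AKI). The WT AKI pool combined 180 mg of tissue from 3 wild-type mice, and the EST KO AKI pool combined 124 mg from 6 mice without a working gene for estrogen sulfotransferase (EST), which inactivates estrogens by adding sulfate. How the EST allele was disrupted is not given in the sources used here. Each pool was read on 1 array, so no test between genotypes was possible, the difference has no replicate check, and uninjured kidney is not part of the comparison. In pooled tissue, fewer cells of a type and less RNA per cell cannot be told apart.

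The ER folds secreted and membrane proteins, and proximal tubule cells, which are rich in transporters and secreted products, carry a large ER. When unfolded proteins build up there, the sensors IRE1 (Ern1), PERK (Eif2ak3) and ATF6 switch on the unfolded protein response: IRE1 splices the mRNA of the transcription factor XBP1, ATF6 is cut to release a transcription factor, and PERK slows translation and favours ATF4, which in turn induces CHOP (Ddit3). Targets of these factors include chaperones such as BiP (Hspa5), their co-chaperones, and parts of ER-associated degradation (ERAD), the route by which misfolded proteins are returned to the cytosol for destruction. Renal ischemia is known to activate this response in tubules.

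Many of these targets share the ER stress response element, ERSE, or its compact form, ERSE-II, in their promoters. The following sequences are shown because they hold an exact match to either element, whatever the ratio of the gene. RefSeq promoter windows (build GRCm38.p6, 250 bases before to 50 after the annotated start) matched all 10 genes. The motifs searched on both strands were ERSE (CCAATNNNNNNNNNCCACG), the compact ERSE-II (ATTGGNCCACG), the unfolded protein response element UPRE (TGACGTGG) and the C/EBP-ATF response element CARE (TGATGNAA). In the 3 whole windows capitals mark matches to these motifs, written on the gene's own strand, so that a match on the opposite strand appears as its reverse complement. In the 2 single sites, which are whole ERSE matches written in the motif's direction, capitals mark CCAAT and CCACG.
Herpud1, chr8:94386179-94386478, plus strand: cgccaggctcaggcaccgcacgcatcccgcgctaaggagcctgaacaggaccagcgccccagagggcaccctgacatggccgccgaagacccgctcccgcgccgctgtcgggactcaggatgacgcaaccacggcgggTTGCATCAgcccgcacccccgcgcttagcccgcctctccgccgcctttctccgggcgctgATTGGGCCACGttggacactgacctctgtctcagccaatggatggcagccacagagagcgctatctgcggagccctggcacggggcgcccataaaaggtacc
Hspa5, chr2:34771840-34772139, plus strand: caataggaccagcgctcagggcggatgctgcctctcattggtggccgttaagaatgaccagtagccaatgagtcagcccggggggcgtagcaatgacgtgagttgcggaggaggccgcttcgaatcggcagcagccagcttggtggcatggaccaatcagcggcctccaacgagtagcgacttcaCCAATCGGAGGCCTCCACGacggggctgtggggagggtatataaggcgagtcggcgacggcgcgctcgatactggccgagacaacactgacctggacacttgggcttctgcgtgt
Hsp90b1, chr10:86705395-86705694, minus strand: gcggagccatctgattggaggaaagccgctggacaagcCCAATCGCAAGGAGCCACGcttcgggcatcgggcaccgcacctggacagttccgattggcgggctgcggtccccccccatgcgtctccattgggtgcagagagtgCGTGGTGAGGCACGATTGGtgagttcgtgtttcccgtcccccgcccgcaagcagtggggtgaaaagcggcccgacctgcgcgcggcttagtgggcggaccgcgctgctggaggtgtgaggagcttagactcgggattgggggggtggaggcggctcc
Dnajc3, ERSE site only: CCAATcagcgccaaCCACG
Calr, ERSE site only, read on the strand opposite to the gene: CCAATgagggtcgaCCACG

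ERSE was found in 4 of the 10 windows, those of Hspa5, Hsp90b1, Dnajc3 and Calr, and in 39 of all 32851 windows of this length (0.119%). Hsp90b1 held 2 copies, 1 on each strand. ERSE-II, which occurred in 0.0365% of all windows, was found close upstream of the start of Herpud1, with its last base at position -42. The only CARE among the 10 windows (3.97% of all windows) lay in Herpud1 as well, and no window held a UPRE (0.676% of all windows). Neither CCAAT nor CCACG lay in the Xbp1 window, whereas CCAAT was found in each of the other 9 and CCACG in 8. Matches are descriptions of these letters only. They overlap, since ERSE and ERSE-II both contain CCACG, ERSE contains CCAAT and ERSE-II its reverse complement.

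**Figure D1:**
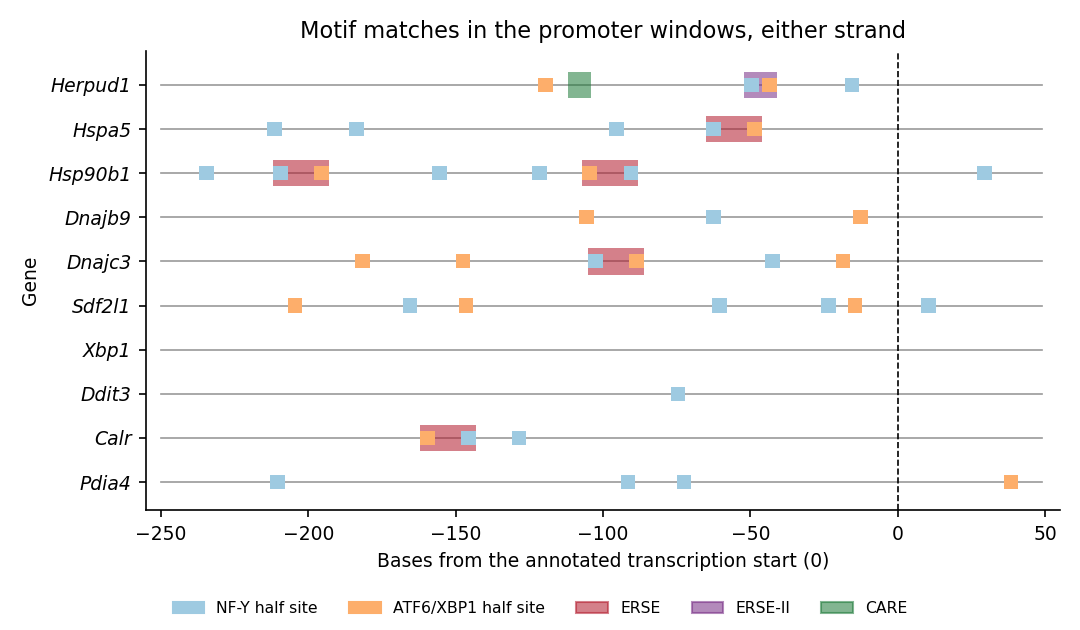
Motif matches on either strand of the promoter windows of the 10 genes (rows) against distance in bases from the annotated transcription start at 0. Pale wide boxes are whole elements (ERSE, ERSE-II, CARE) and small boxes are the short parts of ERSE, CCAAT or its reverse complement (bound by NF-Y) and CCACG (bound by ATF6 or XBP1). ERSE stands in 4 windows, ERSE-II and CARE in that of Herpud1, and no match of any kind in that of Xbp1.

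Values are intensities on the linear scale on which they were deposited, given as WT and then EST KO. A probe set was taken as above background where it exceeded the 95th percentile of 129 probe sets of families with little or no expression in kidney (olfactory, vomeronasal and taste receptors, keratin-associated proteins). This background was 676.1 for WT and 638.3 for EST KO. Dim values were set to background before a ratio was taken, so that a ratio against a dim value is a bound ("at least"), and no ratio was formed with both pools below background. Where a gene had several probe sets, the one with the highest mean level over the arrays stood for it. Of the 10 genes, 9 were above background in at least 1 pool and 8 had a ratio; Sdf2l1 and Pdia4 had none.

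The 8 genes with a ratio were all higher in the EST KO pool, against 44.4% of the 7346 genes with a ratio on the array (56.9% after centring each array on its median). Herpud1, a component of ERAD, stood apart at 4.75-fold, and Hspa5, Hsp90b1, Dnajb9 and Dnajc3, all chaperones or co-chaperones, followed between 1.61-fold and 1.70-fold at their brightest probe sets. With probe sets averaged, Hspa5 and Dnajc3 were lower than that, at log2 0.41 and 0.43. Xbp1 and Calr differed by 1.31-fold and 1.22-fold. Herpud1 was the only 1 of the 10 that was 2-fold or more higher, a size reached by 3.08% of genes. A difference of 1.5-fold or more was seen for 5 of the 10 and for 8.62% of genes. None was 1.5-fold lower (7.57% of genes) or 2-fold lower (1.43% of genes). The median over the 8 was 0.71 on the log2 scale (EST KO minus WT), beside -0.06 over all genes with a ratio. Ddit3 was above background in the EST KO pool alone, so under the floor its ratio could only be higher or missing. The 8 passed the background filter, and the 10 were named with earlier results of these arrays known, so neither the counts nor the median are independent evidence of a direction.

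**Figure D2:**
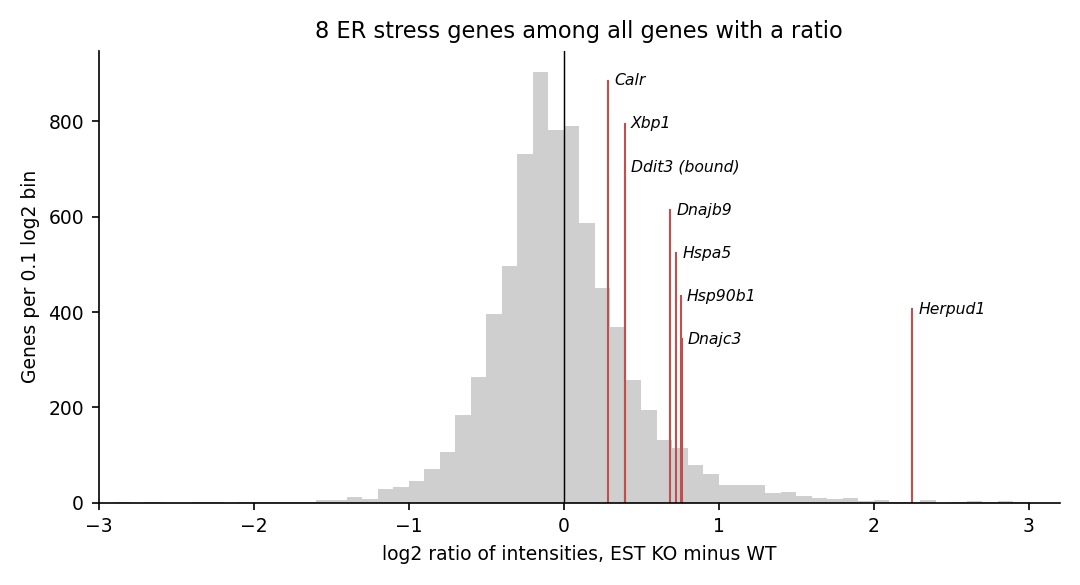
Histogram of the log2 ratio (EST KO minus WT) of the 7346 genes with a ratio, in bins of 0.1, with vertical red lines at the 8 ER stress genes that had one. The 8 lines lie to the right of 0, and Herpud1 at 2.25 is far from the other 7, which run from 0.28 to 0.76; the line of Ddit3 is a lower bound.

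Herpud1 encodes an ER membrane protein with a ubiquitin-like domain that works with the ligase HRD1 in ERAD, and it is a known target of ATF6, XBP1 and ATF4. Its brightest probe set read 1658 (WT) and 7871 (EST KO), a log2 ratio of 2.25. The other probe set read 782 and 5292, a log2 ratio of 2.76 or 6.77-fold. Both probe sets lay above background in both pools and pointed the same way. Only 14 of the 7346 genes had a higher ratio. With 500 added to both values before the ratio, a step that pulls ratios of dim signals towards 0, the log2 ratio was 1.96, and with both probe sets averaged it was 2.50.

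With 1 array a genotype, the spread that could be measured was the one among probe sets for the same gene. In 1663 genes, 2 or more probe sets exceeded background in both pools. For the 2 brightest of each gene, the log2 ratios differed by a median of 0.21 and by 0.81 at the 95th percentile, and they had opposite signs in 29.3% of genes. This is spread between probes on the same RNA, not between mice. The distance from Herpud1 to the next gene, Dnajc3, was 1.49, a distance exceeded by 0.481% of such probe set pairs. Dnajc3, Hsp90b1, Hspa5 and Dnajb9 spanned 0.08 in all, less than the usual probe set difference, so their order is not resolved.

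Hspa5, the ER chaperone BiP, binds unfolded chains and holds the stress sensors inactive. Its 3 probe sets did not point the same way. The brightest read 4218 and 6974 (1.65-fold higher, log2 0.73) and another read 1598 and 3369 (2.11-fold higher). The remaining probe set, next in mean level, read 6500 and 4358, which is 1.49-fold lower in the EST KO pool. The identifier of the brightest ends in a_at. Those of the latter 2 end in s_at (the higher) and x_at (the lower), endings that the array maker gives to probe sets that may also read transcripts of other genes. For Calr, Xbp1 and Dnajc3, 2 probe sets each carry an s_at or x_at ending too. The gap of 1.30 between the log2 ratios of the 2 brightest was matched or exceeded in only 12 of the 1663 genes. With all 3 averaged, the log2 ratio of Hspa5 was 0.41.

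Of the 3 BiP partners among the 10 genes, Dnajb9 and Dnajc3 had a ratio and were higher. Dnajb9, a J-domain protein that drives the BiP ATPase and restrains IRE1, had 1 probe set, which read 5093 and 8197 (1.61-fold, log2 0.69). Dnajc3, a J-domain protein also called p58IPK that inhibits PERK, had 5 probe sets, of which 2 lay above background in both pools. The brightest read 1061 and 1799 (1.70-fold, log2 0.76), and the next 773.2 and 967.2 (1.25-fold, log2 0.32). Another read 628 and 778.7, with only the EST KO value above background, and was at least 1.15-fold higher. The last pair of Dnajc3 probe sets lay below background in both pools (365.7 and 315.2, and 254 and 293.2). The size for Dnajc3 therefore depends on the probe set, with a mean of 0.43 over those measured. Sdf2l1, a small partner of the BiP and J-domain complex, read 568.6 and 575.5, below background in both pools.

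Hsp90b1, Calr and Pdia4 are folding factors of the ER lumen that act beside BiP. Hsp90b1, the ER form of HSP90 known as GRP94, was read by 2 probe sets that gave nearly the same ratio. They read 2357 and 3976 (1.69-fold, log2 0.75), and 1149 and 1876 (1.63-fold, log2 0.71). Calreticulin, a calcium-binding lectin chaperone encoded by Calr, was higher by a smaller amount at all 3 of its probe sets. They read 8914 and 10859 (1.22-fold), 8431 and 10991 (1.30-fold), and 8046 and 10251 (1.27-fold). Pdia4, a protein disulfide isomerase, read 604.3 and 668.7 at its brightest probe set, the latter above its own background but under that of the WT pool, so the values have no order. Its other probe set read 283.2 and 272.5, below background in both.

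Xbp1 and Ddit3 encode transcription factors of the response, and the value of Ddit3 is only a lower bound. Xbp1 was higher at all 4 of its probe sets, which were above background in both pools. Of these, 3 gave like ratios: 12192 and 16012 (1.31-fold, log2 0.39), 8473 and 11788 (1.39-fold), and 2929 and 3951 (1.35-fold). The dimmest read 799 and 833.1 (1.04-fold). No probe set is labelled as reading the spliced form, so these values do not measure IRE1 activity. Ddit3, which encodes the pro-apoptotic factor CHOP, read 487.9 (WT, below background) and 889.5 (EST KO), at least 1.32-fold higher. As deposited, with no floor, the log2 ratio of Ddit3 was 0.87. A further probe set of Ddit3 read 19 and 36.2, below background in both.

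**Figure D3:**
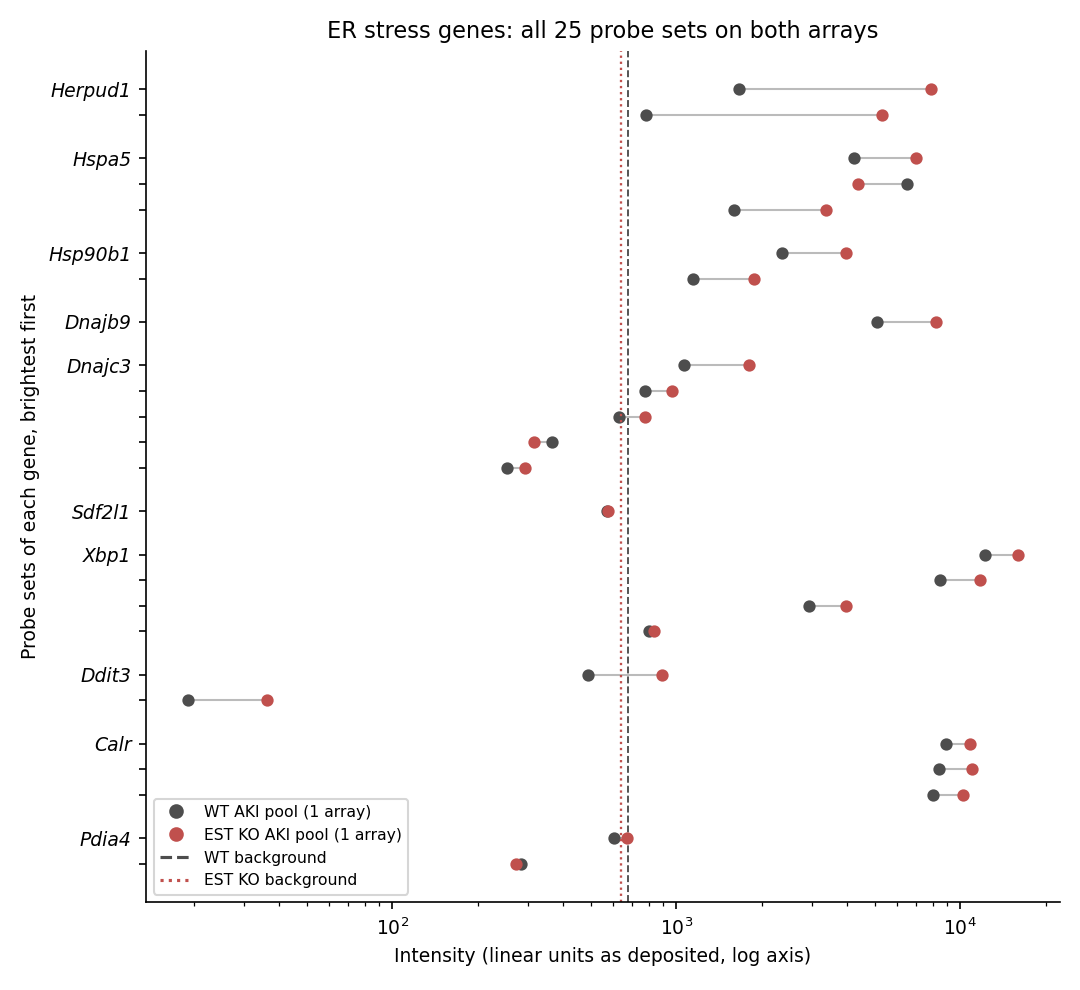
Intensity on a log axis of each of the 25 probe sets of the 10 genes (rows, brightest first within a gene) in the WT AKI pool (grey) and the EST KO AKI pool (red), 1 array each, joined by a line. Vertical lines mark the background of each array, 676.1 (WT) and 638.3 (EST KO). Among the 17 that exceed background in both pools, 16 are higher in the EST KO pool and 1, of Hspa5, is lower.

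Counted by probe set, 17 of the 25 lay above background in both pools, 3 in 1 pool and 5 in neither. Of the 17, 16 were higher in the EST KO pool, against 46.7% of the 8456 such probe sets with a single symbol. Probe sets of a gene read the same RNA and are not replicates.

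Over the rest of the pathway the ratios lay on both sides of 0. A list of 111 other genes of ER protein folding and its stress response was read in 7 groups, and 88 of them had a ratio. In the EST KO pool 51 of them were higher and 37 lower, and their median was 0.04. That is 58.0% higher, against 44.4% of all genes with a ratio. After centring on the array median 61 were higher and 27 lower (69.3%, against 56.9% of all genes). After quantile normalization 41 were higher and 47 lower (46.6%, against 44.3%). The side of 0 on which most lay, and the distance from the share over all genes, thus depended on the scaling. The group counts below stand beside the same 44.4% and the median of -0.06 over all genes. Only 3 of the 88 (3.41%) were 1.5-fold or more higher and 4 (4.55%) lower by as much, both below the shares over all genes. Whether the 10 genes differ from these 88 was not tested, because the 10 were named with the ratios known.

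**Figure D4:**
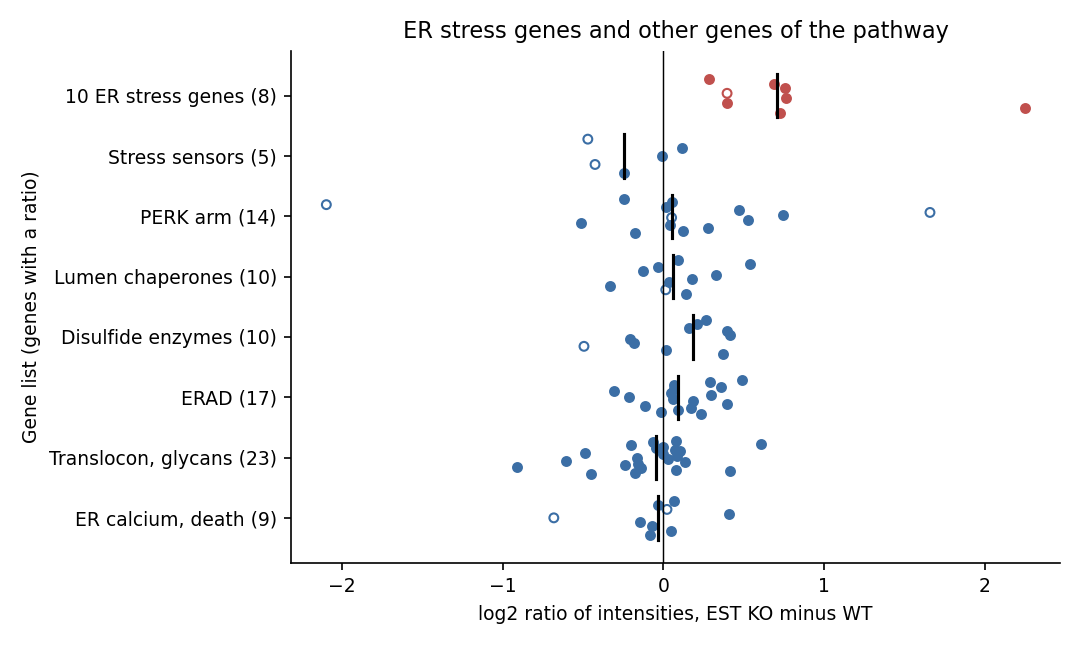
log2 ratio (EST KO minus WT) of each gene with a ratio, for the 10 ER stress genes (red) and 7 groups of other pathway genes (blue); open circles are bounds, black bars are medians, vertical positions within a row are only spread for legibility, and numbers in brackets count genes with a ratio. The red points lie right of 0, with a median of 0.71, while the medians of the other groups run from -0.25 to 0.19.

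Of the stress sensors and the proteases that cut ATF6, 1 of 5 with a ratio was higher and 4 lower (median -0.25). Ern1, encoding IRE1, had 884.3 and 517, at least 1.39-fold lower, and Mbtps2, which completes the cutting of ATF6, was at least 1.34-fold lower (857.2 and 592.3). Atf6 itself read 1200 and 1012, 1.19-fold lower, and Eif2ak3, encoding PERK, read 1112 and 1207, 1.09-fold higher. Of the 3 sensors only Eif2ak3 read higher in the EST KO pool. Its log2 ratio of 0.12 was smaller than the usual probe set difference of 0.21, and that of Atf6 (-0.25) was little larger in size. A contrast between these 2 is therefore not resolved.

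The PERK arm had 10 of 14 genes higher and 4 lower, a median of 0.05 and the widest spread of the 7 groups. Atf3, a stress-induced transcription factor downstream of ATF4, had 260.2 and 2133, at least 3.15-fold higher. Nupr1, a stress-induced nuclear protein, had 2730 and 252.5, at least 4.28-fold lower. Without s_at and x_at probe sets its log2 ratio was -1.18 in place of -2.10. Psat1, a serine synthesis enzyme under ATF4 control, was 1.68-fold higher (1301 and 2179), with a log2 ratio of 0.74 that was 0.37 without such probe sets. Atf4, whose product is mainly set by translation, read 4051 and 5615, 1.39-fold higher. Members of this arm thus differed in both directions.

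Other chaperones of the lumen had 7 of 10 higher, against 44.4% of all genes, and 3 lower. Their median was 0.06, beside -0.06 over all genes. Manf, a secreted ER stress protein that binds BiP, had the highest ratio among them at 1.45-fold (919.3 and 1336). Canx, calnexin, the membrane-bound relative of calreticulin, was 1.26-fold higher (5779 and 7257), with a log2 ratio of 0.09 without s_at and x_at probe sets. Dnajc10, a J-domain disulfide reductase, was 1.26-fold lower (1701 and 1350). Hyou1, the exchange factor of BiP, read 1510 and 1477, and Creld2, an ER stress-induced protein, 821.5 and 841.2. The latter pair, both known targets of the response, differed by less than the usual probe set difference.

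Disulfide enzymes were higher for 7 of 10, with a median of 0.19. Pdia3, the isomerase that works with calnexin and calreticulin, was 1.33-fold higher (3544 and 4724) and P4hb, the main isomerase PDI, 1.20-fold higher (14404 and 17337). Txndc5 was 1.32-fold higher, with another probe set opposed and a log2 ratio of 0.10 when they were averaged. Pdia6, an isomerase that also acts on the sensors, was at least 1.41-fold lower (899.1 and 619.8). No member of this group reached 1.5-fold.

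ERAD genes other than Herpud1 were higher for 13 of 17, with a median of 0.09 and none 1.5-fold apart. Sel1l, the scaffold of the main ERAD ligase, was 1.40-fold higher (1217 and 1709) at its brightest probe set, but 2 others were opposed and their mean was 0.08. Syvn1, the ligase HRD1 that pairs with Sel1l, was 1.24-fold lower (2090 and 1689), with 1 probe set opposed. Aup1 was 1.32-fold higher (907.2 and 1194), Derl1, a channel component, 1.28-fold higher (1626 and 2081), and Edem1, which delivers glycoproteins, 1.14-fold higher (709.9 and 806.8). None of these partners came near the ratio of Herpud1.

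The translocon and glycan enzymes, through which proteins enter the ER and receive sugars, were higher for 9 of 23 and lower for 14, with a median of -0.04 that was 0.07 after centring. Ganab, the catalytic subunit of glucosidase II, was 1.88-fold lower (1418 and 756). The signal peptidase subunits diverged, Sec11a being 1.53-fold higher (2647 and 4038) and Spcs3 1.52-fold lower (3183 and 2090). Genes of ER calcium and cell death were higher for 4 of 9, with a median of -0.03 that was 0.08 after centring and 0.07 with probe sets averaged. Itpr3, a calcium release channel, was at least 1.60-fold lower (1024 and 593.7), Rcn2, a calcium-binding protein, 1.11-fold lower (914.9 and 826.1), and Tmbim6, an ER membrane protein that protects from cell death, 1.33-fold higher (14043 and 18609).

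Among these other genes, those with ERSE in the promoter window had ratios on both sides of 0. The element was found in 6 of the 89 that had a window: Canx (log2 0.33), Creld2 (0.03), Syvn1 (-0.31), Pdia6 (a bound of -0.49), and Derl3 and Ero1b, which lay below background in both pools. ERSE-II was found in Dnajb11, an ER J-domain protein (0.09). Beside them, the members with ERSE had log2 ratios of 0.76 (Dnajc3), 0.75 (Hsp90b1), 0.73 (Hspa5) and 0.28 (Calr). Herpud1, with ERSE-II, had 2.25. Members with neither element in the window had 0.69 (Dnajb9), 0.39 (Xbp1) and a bound of 0.40 (Ddit3), while Sdf2l1 and Pdia4 had no ratio.

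Markers of cell types moved between the pools as well, and their part in the values above was not tested; sums are over the markers above background in at least 1 pool, and no marker was listed at 0. All 10 proximal tubule markers were higher in the EST KO pool, against 44.4% of all genes. At least 1.5-fold higher were 9 of them, against 8.62% of all genes. The other, Slc5a12, is a bound of 1.13-fold (77.3 and 766.7). It was above background in the EST KO pool alone, so under the floor it could only read higher. Summed intensity was 41498 (WT) and 91716 (EST KO), and the median log2 ratio was 1.20. Slc34a1, the phosphate transporter of that segment, was 1.68-fold higher. Of the 6 tubular injury markers with a ratio, 5 were lower, with sums of 90662 and 53615, and Havcr1, the gene of KIM-1, was 1.92-fold lower. The other, Cxcl1, was 2.15-fold higher (2964 and 6388), a larger difference than that of Havcr1. At least 1.5-fold lower were 4 of the 6, against 7.57% of all genes. The 5 myeloid (8054 and 5489) and 6 endothelial (8937 and 6419) markers with a ratio were all lower, while 44.4% of all genes were higher. At least 1.5-fold lower were 1 of the 5 and 2 of the 6, against 7.57% of all genes. Cd68 among the myeloid markers, and Pecam1 and Nos3 among the endothelial, are bounds. They were above background in the WT pool alone, so under the floor they could only read lower. The smallest endothelial log2 ratio (-0.087) was less in size than the 0.11 that centring on the array median adds. Lower too were 3 of 4 fibroblast markers (6188 and 5688) and the 1 podocyte marker (1056 and 790.2). Of 5 distal nephron markers 3 were higher and 2 lower (39778 and 39911). These near-equal sums hold opposite differences: Slc12a1 was 2.28-fold higher (2965 and 6776) and Aqp2 1.57-fold lower (6236 and 3964). Plasma cells and pancreatic acinar cells are both rich in ER. Of 8 plasma and B cell markers 6 lay below background in both pools, among them Jchain (89.5 and 124.4). The other 2 were higher in the EST KO pool: Ighm by 1.44-fold (972.3 and 1402) and Mzb1 by 1.09-fold (835 and 913.5). Ighm was read from an x_at probe set, with 1 other probe set opposed. The log2 ratio of Mzb1 (0.13) was smaller than the usual probe set difference of 0.21. Of 6 acinar markers 4 lay below background in both pools. The other 2 were higher: Cela1 by 1.34-fold (1810 and 2432) and Prss2, a bound (525.3 and 683.7). Sums were 1807 and 2316 for the former list and 2335 and 3116 for the latter. One label of the EST KO pool names liver where the other fields name kidney; 7 of 9 hepatocyte markers, including Alb (487.9 and 522.3), lay below background in both pools, and the other 2 summed to 1287 and 1503. As a sign of RNA integrity, control probe sets near the 3' end over those near the 5' end gave 1.35 and 1.28 for actin, and 0.88 and 0.84 for GAPDH.

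**Figure D5:**
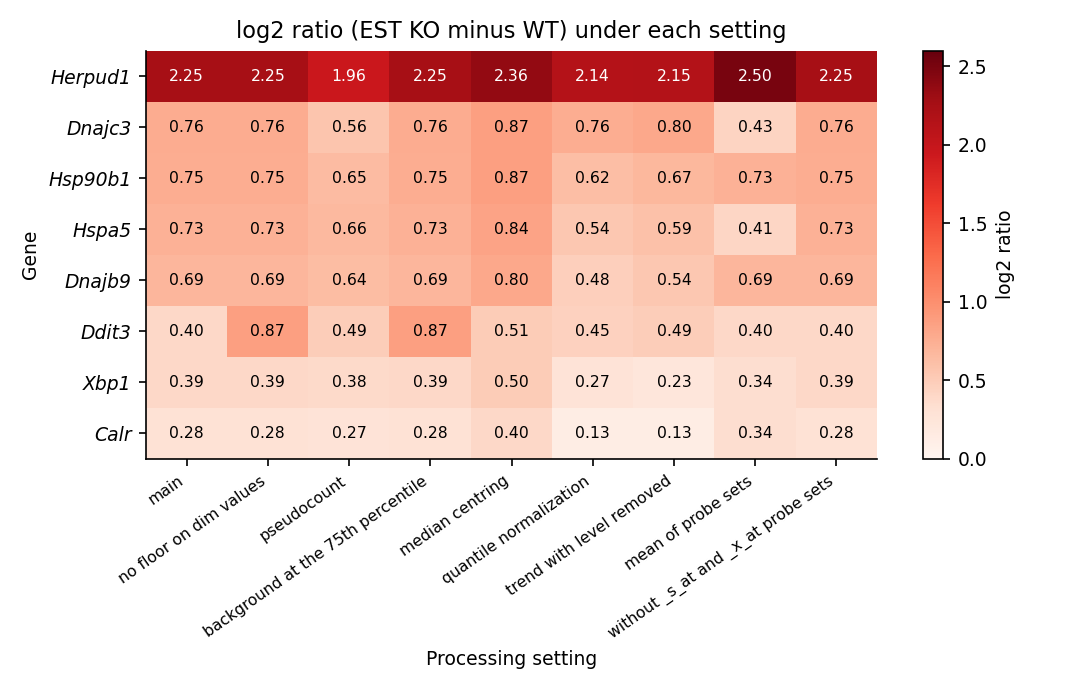
log2 ratio (EST KO minus WT) of the 8 genes with a ratio (rows) under the main setting and the 8 alternatives (columns), with the colour scale from 0 to 2.6. Every cell is above 0, Herpud1 runs from 1.96 to 2.50, and Hspa5 and Dnajc3 are lowest when their probe sets are averaged (0.41 and 0.43).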

How the data were processed

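Kidney RNA of 1 WT AKI pool and 1 EST KO AKI pool was hybridised as biotinylated cRNA to an Affymetrix mouse array, per the labels' protocols. The authors deposited 1 intensity per probe set and array for 45101 probe sets, on a linear scale. From the values, each array's mean after dropping the lowest and highest 2% was 500.0; the summarising software is not given in the sources used here. Array medians were 261.8 and 242.4, and 24.0% and 24.2% of probe sets exceeded background.

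Probe sets with a single symbol in GEO's platform annotation (34958) were named, and 34754 were matched by Entrez ID to RefSeq (GRCm38.p6). Values below background were raised to it, and log2 ratios were taken per gene from the brightest probe set. With 1 array per genotype there is no test. The ratio step was tested on simulated arrays with known 2-fold changes in bright genes. The handling of dim values and the motif search were not tested in this way. Alternatives changed the floor, a pseudocount of 500, the background percentile, the scaling, a lowess trend and the choice of probe sets. Named genes are the 10 members, the 3 pathway genes per group with the largest absolute ratio and a preset list of well-known pathway genes. Aside from these, Derl3, Ero1b and Dnajb11 are named for their promoter match alone, and Ighm, Cela1 and Prss2 were chosen after their values were seen. The same holds for the markers Slc5a12, Cxcl1, Cd68, Pecam1, Nos3, Slc12a1 and Aqp2. Members and lists were chosen with earlier results of these data known. Python 3.11.15, pandas 2.3.3 and statsmodels 0.14.6 were used.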

Additional observations from a re-analysis of the deposited data

How the results depend on the processing

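The 8 ER stress genes with a ratio were higher in the EST KO pool under all 8 alternatives, and Herpud1 alone was at least 2-fold higher under each. With no floor, the background at the 75th percentile, or no s_at and x_at probe sets, all 8 but Ddit3 kept the same ratio. Those alternatives therefore could not have changed the direction of these genes. No alternative read Hspa5 from its lower probe set alone (log2 -0.58), which was next to the brightest in mean level. The number at least 1.5-fold higher was 5, and fell to 3 with quantile normalization and to 3 with probe sets averaged. The median log2 ratio over the 8 was 0.71, and became 0.57 with the trend with level removed and 0.42 with probe sets averaged. With a pseudocount the median was 0.56 and with quantile normalization 0.48. Both of the latter are over 9 genes, since Pdia4 then had a ratio (0.08 and 0.05), so they are not medians of the same 8. Single genes moved by more than the SD between probe sets (0.28) in 5 cases: Herpud1 with a pseudocount (1.96), Hspa5 (0.41) and Dnajc3 (0.43) with probe sets averaged, and Ddit3 (0.87) with no floor and with the background at the 75th percentile of silent families. Under that lower background Sdf2l1 had a log2 ratio of 0.02 and Pdia4 of 0.15.

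Centring each array on its median raised every ratio of genes above background in both pools by 0.11 and the median over all genes from -0.06 to 0.06. List medians became 0.16 for the PERK arm, 0.17 for lumen chaperones, 0.30 for disulfide enzymes and 0.20 for ERAD. Those of translocon and glycan enzymes (0.066) and of ER calcium and death (0.080) changed sign, as did the latter with probe sets averaged (0.072). With quantile normalization the translocon median was -0.11. Except where a value shows it, the cause of these changes was not tested. Dim signal leaves Sdf2l1, Pdia4 and Ddit3 without a measured ratio, and 1 array per genotype leaves the spread between mice unknown. No paired analysis was possible because each genotype has 1 array.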
